A study of Mus musculus with 2 samples.

Results

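Retained-intron transcripts are transcripts that the annotation marks as still holding intron sequence that other transcripts of the same gene splice out. Known retained-intron transcripts were taken here as every transcript of the type retained_intron in GENCODE release M21 with at least 1 read in either of 2 long-read libraries of mouse cerebral cortex. Of the 21848 annotated retained-intron transcripts, 3244 had a read in either library, among 24632 known transcripts of all types with a read. In replicate 1 there were 2276 such transcripts and in replicate 2 there were 2305, and 1337 had a read in both.

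Both libraries were made from total RNA of left cerebral cortex. The mice were of the strain B6NCrl and 6 months old, with no treatment or altered gene given in the labels, and the libraries form 1 group as biological replicates 1 and 2. Both tissue samples carry the same donor record, and nothing in the labels says that they came from separate animals, and each test compares 1 library with the other over their reads, so the p-values cover the counting error of reads only, with each read taken as independent. There is no second condition, and every comparison is between transcripts or genes within the libraries, or between the libraries. The libraries held 1306424 and 1304133 reads assigned to transcript models. Levels are given as reads per 1000000 reads of the library (CPM), and 1 read was worth 0.765 CPM in replicate 1 and 0.767 CPM in replicate 2. A long read was taken to stand for 1 RNA molecule, which was not checked, so these levels were not divided by transcript length. Markers of the tissue were present: Mbp, a myelin protein of oligodendrocytes, had 4171 and 3314 reads, Camk2a of excitatory neurons had 390 and 691, Gad1 of inhibitory neurons had 227 in each library, and Hbb-bs of red blood cells had 23 and 5.

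In mammalian cells an intron is cut out between a 5′ splice site, usually GT, and a 3′ splice site, usually AG, and short, GC-rich introns are among those most often left in. A transcript with an intron left in may stay in the nucleus until it is spliced or degraded, or may reach the cytoplasm, where a stop codon inside the intron can send it to nonsense-mediated decay. In neurons, introns held in the nucleus are known to be spliced after activity. The annotation class is broader than this picture, because it also takes in partial transcripts whose end lies inside an intron.

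A spliced read that matches a member must cross the intron only where the whole intron lies in an internal exon, with a splice junction on each side. Of the 3244 members, 156 were of this kind, and for 5 of them, with 29 and 14 reads, the junctions were also part of the chain of a protein_coding transcript that carries the intron as exon. The intron with 10 bases of exon on each side is shown for the 8 of them with the most reads, from the GENCODE M21 transcripts, in the direction of transcription, because these are the introns whose presence in the RNA each matching read required. Capitals mark the intron and lower case the flanking exons.
Tesc-203: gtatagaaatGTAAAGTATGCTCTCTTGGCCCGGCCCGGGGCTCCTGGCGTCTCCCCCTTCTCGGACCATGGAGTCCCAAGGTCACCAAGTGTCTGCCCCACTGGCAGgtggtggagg
Mrps26-201: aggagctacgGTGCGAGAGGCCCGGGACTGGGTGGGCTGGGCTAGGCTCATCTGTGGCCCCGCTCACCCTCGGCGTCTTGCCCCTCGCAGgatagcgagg
Fdx1l-203: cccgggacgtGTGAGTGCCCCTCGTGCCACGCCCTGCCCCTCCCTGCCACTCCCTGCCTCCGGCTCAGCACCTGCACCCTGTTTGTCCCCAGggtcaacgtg
Mdp1-202: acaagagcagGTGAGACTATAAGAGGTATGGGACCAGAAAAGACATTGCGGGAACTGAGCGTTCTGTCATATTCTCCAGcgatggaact
Ppdpf-206: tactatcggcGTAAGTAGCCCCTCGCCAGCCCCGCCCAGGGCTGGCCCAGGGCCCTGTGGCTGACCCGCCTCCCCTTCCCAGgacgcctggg
Alkbh6-202: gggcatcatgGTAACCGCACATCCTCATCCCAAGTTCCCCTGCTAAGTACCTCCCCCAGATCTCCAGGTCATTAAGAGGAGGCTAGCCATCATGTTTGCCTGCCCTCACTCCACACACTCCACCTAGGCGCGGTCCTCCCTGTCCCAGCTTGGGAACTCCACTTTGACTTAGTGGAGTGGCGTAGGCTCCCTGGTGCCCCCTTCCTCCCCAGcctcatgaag
Mrps24-203: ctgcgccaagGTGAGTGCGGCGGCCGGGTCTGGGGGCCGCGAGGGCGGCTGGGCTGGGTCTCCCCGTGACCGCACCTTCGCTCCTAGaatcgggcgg
Srebf2-205: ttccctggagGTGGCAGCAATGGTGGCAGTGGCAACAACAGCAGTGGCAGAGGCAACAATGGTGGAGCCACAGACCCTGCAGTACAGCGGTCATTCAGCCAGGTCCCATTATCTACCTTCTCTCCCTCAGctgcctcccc

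All 8 introns began with GT and ended with AG, and each lay between coding exons of a protein_coding transcript of its gene. The intron of Tesc-203 (mm10 chr5:118056439-118056536, plus strand, intron 5 of 7) was 98 bases long, with 64.3% G or C and no stop codon in the reading frame of the exon before it. Tesc encodes tescalcin, a calcium-binding protein. The intron of Mrps26-201 (chr2:130564228-130564307, plus strand, intron 2 of 3) had 80 bases, 72.5% G or C and no in-frame stop. That of Mrps24-203 (chr11:5707410-5707486, minus strand, intron 2 of 3) had 77 bases, 76.6% G or C and no in-frame stop. Both genes encode proteins of the small subunit of the mitochondrial ribosome. The lengths of the Tesc, Mrps26 and Mrps24 introns all leave a remainder of 2 when divided by 3, so each shifts the reading frame of the exon that follows.

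The introns of Fdx1l-203, Mdp1-202, Ppdpf-206 and Alkbh6-202 held a stop codon in frame. In Fdx1l-203 (chr9:21073182-21073263, minus strand, intron 2 of 4, 82 bases), of a mitochondrial ferredoxin gene, the stop began at base 2 of the intron, and in Mdp1-202 (chr14:55660099-55660167, minus strand, intron 2 of 5, 69 bases), of a magnesium-dependent phosphatase gene, also at base 2. In Ppdpf-206 (chr2:181187737-181187808, plus strand, intron 2 of 4, 72 bases) it began at base 6, and in Alkbh6-202 (chr7:30312389-30312590, plus strand, intron 5 of 6, 202 bases), of a gene of the AlkB family of dioxygenases, at base 34. The intron of Srebf2-205 (chr15:82169819-82169938, plus strand, intron 2 of 20, 120 bases) was the only one of the 8 with both a length divisible by 3 and no stop in frame. Srebf2 encodes a transcription factor of cholesterol synthesis. Its member is also the one of the 8 whose junctions are part of a protein_coding chain, so a protein_coding transcript carries this intron as exon.

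Tesc-203 had 65 reads in each library, or 49.8 ± 0.0618 CPM (SD, n = 2). Mrps26-201 had 60 reads in replicate 1 and 42 in replicate 2 (39.1 ± 9.70 CPM). Fdx1l-203 had 50 and 45 reads (36.4 ± 2.66 CPM). Mdp1-202 had 46 and 35, Ppdpf-206 had 44 and 31, Alkbh6-202 had 32 and 30, and Mrps24-203 had 25 and 24 reads. Counts of Tesc-203, Fdx1l-203, Alkbh6-202 and Mrps24-203 were close in the 2 libraries. Those of Mrps26-201, Mdp1-202 and Ppdpf-206 were further apart and lower in replicate 2. The eighth transcript, Srebf2-205, had 26 and 11 reads. The 156 members of this kind together had 607 reads in replicate 1 and 512 in replicate 2, which was 4.82 ± 0.535% (SD, n = 2) of the reads on members. Of the 156, 61 had a read in both libraries.

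All members together took 11678 of the reads in replicate 1 and 11527 in replicate 2. The share of all library reads was 0.894% in replicate 1 (95% limits 0.878 and 0.910%, exact, by Clopper-Pearson) and 0.884% in replicate 2 (limits 0.868 and 0.900%), a mean of 0.889 ± 0.00708% (SD, n = 2). The intervals cover counting error only. Over the same libraries the share of reads on protein_coding transcripts was 61.0% and 54.4%, that on nonsense_mediated_decay transcripts 0.244% and 0.200%, and that on processed_transcript transcripts 0.491% and 0.465%. The share on retained-intron transcripts differed between the libraries by less than its counting intervals, while the shares on protein_coding, nonsense_mediated_decay and processed_transcript transcripts were lower in replicate 2 with intervals that do not overlap.

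Most members rested on very few reads. The median member had 1 read in each library, 1484 of the 3244 had a single read over both libraries, and 384 had at least 10. Of the members read in replicate 1, 58.7% were also read in replicate 2, against 80.3% of the protein_coding transcripts, and of those read in replicate 2, 58.0% were also read in replicate 1, against 86.5%. The 10 members with the most reads held 22.8% of member reads in replicate 1 and 17.2% in replicate 2, and the first 100 held 52.2% and 47.5%. Members lay in 2654 genes, of which 2174 had 1 member, 394 had 2 and 67 had 3. Isca2, an iron-sulfur cluster assembly gene, had the most, with 5.

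Detection followed the reads of the gene. Of the annotated retained-intron transcripts in genes with no read on a protein_coding transcript, 6.97% had a read. The share was 11.9% in genes with 1 to 9 protein_coding reads over both libraries, 18.2% with 10 to 99, 28.4% with 100 or more but under 1000, and 33.0% with 1000 or more. For the annotated transcripts with a whole intron in an internal exon it went from 1.47% to 21.2% over the same classes of genes, and was below the share over all retained-intron transcripts in each. Most annotated retained-intron transcripts thus had no read even in the genes read most deeply. A count of 0 allows up to 3 reads, or 2.30 CPM, in each library.

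**Figure D1:**
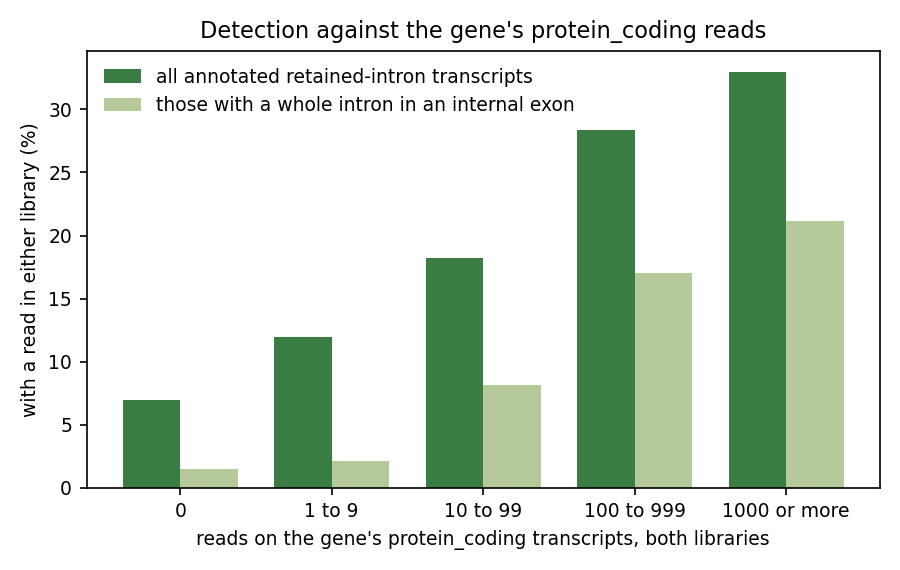
Share of annotated retained-intron transcripts with at least 1 read in either library (vertical axis, percent) by the reads on protein_coding transcripts of the same gene over both libraries (horizontal axis). Dark bars are all annotated retained-intron transcripts, from 6.97% to 33.0%, and light bars those with a whole intron in an internal exon, from 1.47% to 21.2%.

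The members differed in where their intron sequence lies. No whole intron of a protein_coding transcript lay in any exon of 2400 members, which held 65.8% of member reads in replicate 1 and 64.6% in replicate 2. Of these, 2357 lie in genes with an annotated protein_coding transcript. They had a median of 308 bases outside the protein_coding exons, and 18 of them had no such base. Another 358 members held a whole intron in their first exon only and had 17.5% and 18.0% of the reads, 165 held one in their last exon only (5.41% and 5.86%), and 151 had a single exon that spanned an intron (5.71% and 6.80%). The members with a whole intron in an internal exon made up 11.3% of the annotated retained-intron transcripts but 4.81% of those with a read. The order of these kinds by reads was the same in both libraries.

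**Figure D2:**
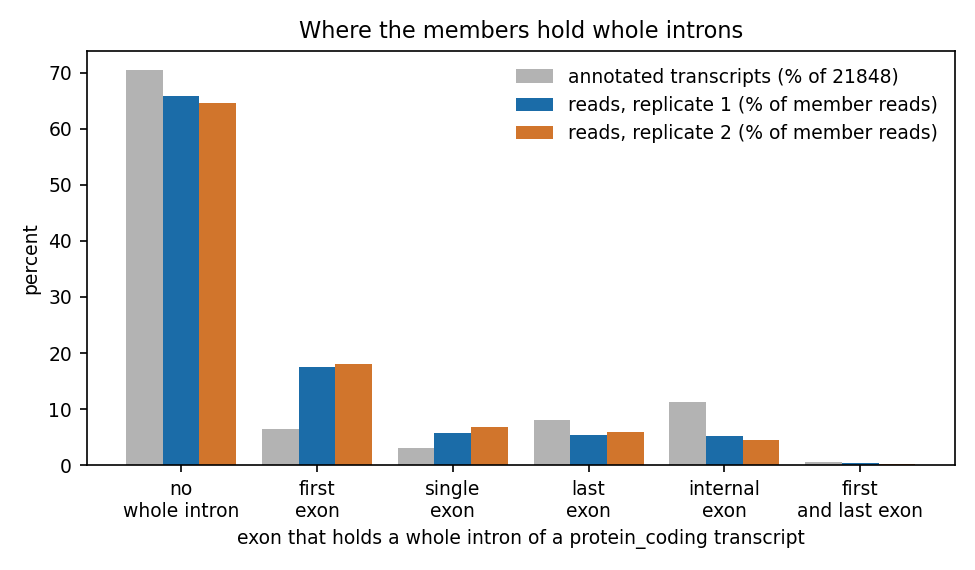
Percent of transcripts or reads (vertical axis) by the exon in which a whole intron of a protein_coding transcript lies (horizontal axis). Grey bars are the 21848 annotated retained-intron transcripts, blue and orange bars the reads on members in replicates 1 and 2, and the class with no whole intron is the highest of all 3.

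For 2501 members with 75.4% and 76.3% of the reads, the splice junctions were a consecutive part of those of a protein_coding transcript of the gene. TALON, the program that assigned the reads, is known to match a read of several exons to a known transcript by its junctions and to let its ends differ. Its settings here are not stated by the sources, and read ends were not analysed here, so for these members a read that holds intron sequence and a shortened read of the spliced mRNA cannot be told apart from the counts. A further 464 members had a single exon and therefore no junction. The intron chain of a protein_coding transcript with 1 or more introns left in was seen in 140 members with 564 and 492 reads, and 116 members with 251 and 248 reads had a junction or combination of their own.

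Among the members whose junctions were part of a protein_coding chain, or all of one, 59.2% reached the last intron of that chain and so lacked its 5′ part, and they had 64.0 ± 2.70% (SD, n = 2) of this group's reads. Another 35.2% reached the first intron and lacked the 3′ part, with 31.5 ± 1.25% of the reads. In the annotation, by contrast, 23.7% of such transcripts reach the last intron, 36.0% the first and 39.4% neither. In genes with at least 100 protein_coding reads, 542 of 756 annotated transcripts that reach the last intron had a read (71.7%), against 235 of 978 that reach the first (24.0%) and 19 of 732 that reach neither (2.60%). The annotated transcripts thus differed in detection by their place along the gene within well-read genes too.

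The member with the most reads was Cox4i1-204 (mm10 chr8:120672590-120674113, plus strand), of the gene for subunit 4 of cytochrome c oxidase in the respiratory chain. It had 1014 reads in replicate 1 and 546 in replicate 2 (776 and 419 CPM). It has 3 exons, lacks the first 2 of the 4 introns of the protein_coding chain, and holds 135 bases outside every protein_coding exon. Replicate 2 was below replicate 1, with a log2 ratio of -0.89 (adjusted p = 1.34e-30, exact binomial test, 0.5 counts added for the ratio), a difference under the 2-fold limit used for calls.

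Rpl5-204 (chr5:107904114-107908050, plus strand), of a protein of the large ribosomal subunit, had 260 and 327 reads and also reached the last intron. The next 3 members reached the first intron and ended inside an intron after it. Syt1-204 (chr10:108899215-109010962, minus strand), of the calcium sensor synaptotagmin of synaptic vesicles, had 279 and 183 reads and 3000 bases outside the protein_coding exons. Ddx24-204 (chr12:103420376-103425830, minus strand), of a DEAD-box RNA helicase, had 201 and 181 reads and 3502 such bases. Mtdh-209 (chr15:34082694-34103345, plus strand), of metadherin, had 184 and 162 reads and 3785 such bases. Each of these 3 has 2 exons, while the protein_coding chains they are part of hold 10, 8 and 11 introns.

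Syn2-205 (chr6:115134902-115275091, plus strand), of the synaptic vesicle protein synapsin II, differed from the other leading members in its junctions. They are all of those of a protein_coding transcript. Its reads were 283 and 14. None of its bases lies outside protein_coding exons, which also holds for the single-exon member Iqsec1-208. The leading single-exon members were Iqsec1-208 with 130 and 140 reads, of an exchange factor for small GTPases of the ARF family, Gnao1-212 with 102 and 160, of the alpha subunit of the G protein Go, Pgp-202 with 119 and 99, and Prkcb-208 with 100 and 113, of protein kinase C beta. Among the 15 leading members Pabpc1-204, of the poly(A)-binding protein of the cytoplasm, had 90 and 171 reads, Eif2s2-203, of the beta subunit of initiation factor eIF2, 113 and 88, Metap2-209, of a methionine aminopeptidase, 79 and 103, Fkbp3-207 76 and 103, and Ckb-204, of brain creatine kinase, 76 and 96. No one of these 15 held a whole intron in an internal exon. Ribosomal protein genes and Pabpc1 have near-identical copies elsewhere in the genome, the labels do not say how reads were placed among copies, and their counts are uncertain to that extent.

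**Figure D3:**
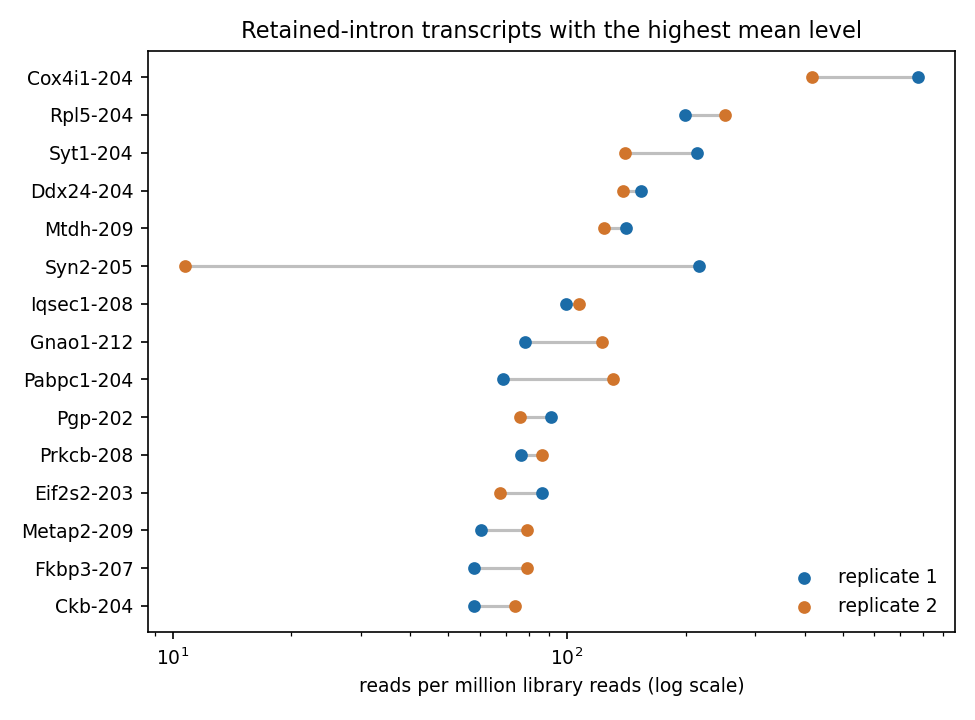
Level of the 15 retained-intron transcripts of highest mean level (vertical axis) in CPM on a log scale (horizontal axis), with a blue point for replicate 1, an orange point for replicate 2 and a grey line between them. Syn2-205 has the widest gap, with 217 CPM in replicate 1 and 10.7 CPM in replicate 2.

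The share of a gene's reads on its retained-intron transcripts was taken as member reads over member reads plus reads on its protein_coding transcripts, in the 1146 genes with a member read and 20 or more such reads per library. The median share was 1.82% in replicate 1 and 2.27% in replicate 2, and the median of the means was 2.00% (SD of the library medians 0.323, n = 2). In 775 genes the share was under 5% in both libraries, in 124 it was at least 10% in both, and in 30 it was over 50% in both. The corresponding median was 2.71% over 332 genes with nonsense_mediated_decay transcripts and 2.16% over 417 with processed_transcript transcripts. Most genes thus had few member reads beside their protein_coding reads, and the high shares lay in a small set of genes.

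The 12 genes of highest mean share were Fry, Gfra4, Mtdh, Pcdh9, Uchl1, Iqsec1, Sytl2, Egr3, Prpf4b, Ank2, Hsp90aa1 and Rsrc1. In the first 5 there was no read on a protein_coding transcript in either library, so that the share was 100% in both, with exact lower limits (Clopper-Pearson) from 88.8% for Fry in replicate 1 to 98.0% for Mtdh in replicate 1. The immediate early gene Egr3 had shares of 97.6% and 100%, Ank2, of the membrane adaptor ankyrin B, 97.1% and 98.4%, and Prpf4b, a kinase of splicing factors, 96.7% and 100%. The leading member of Ank2, the single-exon Ank2-216, has 1 of its 2359 bases outside the protein_coding exons. Of the 30 genes over 50% in both libraries, 18 were led by a member with no whole intron, 5 by one with an intron in the first exon, 4 in the last exon and 3 by a single exon that spans an intron. None was led by a member with an intron in an internal exon.

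A share of 100% did not mean that the gene had no other reads. Uchl1, of a ubiquitin hydrolase abundant in neurons, had 1042 and 1036 reads on models with a junction absent from the annotation, and its members held 4.37% and 5.08% of all its reads. The chaperone gene Hsp90aa1 had 661 and 888 reads on models that match only part of a known chain, and its members held 7.36% and 8.60% of all its reads against shares of 88.5% and 97.7% of known reads. Syt1 members held 94.0% and 89.0% of known reads but 30.04% and 18.0% of all reads. With all models of the gene as the denominator, 13 genes were over 50% in both libraries in place of 30. Iqsec1 stayed near its first value, with 88.4% and 88.1% of all reads, as did Egr3 with 89.1% and 100%. The leading members of both genes have a single exon and hold no whole intron. Iqsec1-208 has 0 of its 2691 bases outside the protein_coding exons, and Egr3-202 has 221 of 3876. A high share in these genes thus does not mean that most of the RNA holds an intron.

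Restricted to members with a whole intron in an internal exon, 88 genes could be given a share, with medians of 1.20% and 0.610%, and none was over 50% in both libraries. Mdp1 was highest, with 46 and 35 member reads beside 47 and 57 protein_coding reads, or 43.8 ± 8.07% (SD, n = 2). Ppdpf followed with 42.1% and 35.0%, Spout1 with 30.8% and 40.6%, Fdx1l with 38.5% and 32.8%, and Alkbh6 with 28.8% and 29.4%. Tesc had 24.8% and 28.9%, Mrps26 33.0% and 18.6%, and Mrps24 14.8% and 13.0%. Neighbours in this order differed by less than the spread of their 2 libraries from Mdp1 to Fdx1l.

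The introns themselves were also followed over models of every class. An intron of a protein_coding transcript was taken where it lay wholly inside an exon of a member with a read, and retention is the percent of reads on models that hold it in an exon among these and the reads on models that splice exactly this intron out. In the 687 introns with 20 or more such reads per library the median retention was 2.94% in replicate 1 and 3.45% in replicate 2, and 60 were over 50% in both. Members supplied 34.0% and 46.2% of the retained reads and protein_coding transcripts 50.6% and 37.5%. Counting retained reads only from internal exons, a setting chosen after seeing the data, gave a median of 0%.

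At the top of this scale stood introns that few or no reads spliced with exactly their ends. For 17 introns no read did so in either library. Reads that remove the region with other ends, or lack it, are not counted, so 100% does not cover all reads of the gene. The Metap2 intron chr10:93879574-93880072 had all its 79 and 103 retained reads on members. None of the gene's 55 and 24 protein_coding reads held this intron or spliced exactly it. All 17 were tied at a retention of 100% in both libraries, and the 6 that the rule named, in 3830406C13Rik, Actb, Cbx6, Fth1, Ftl1 and Gnao1, are the first of them in the alphabet. In Actb, of beta-actin, the 150-base intron chr5:142905279-142905428 was held by 879 and 1093 reads, of which 792 and 1027 lay on protein_coding transcripts and 2 and 2 on the member Actb-205. In Ftl1, of the ferritin light chain, the 69-base intron chr7:45459123-45459191 was held by 1283 and 1571 reads, 1228 and 1503 of them on protein_coding transcripts. In both genes the annotated protein_coding transcripts that splice this intron had no read, and other protein_coding transcripts carry it as exon. Of the 60 introns over 50% in both libraries, 30 had more retained reads on protein_coding transcripts than on members.

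Introns in internal exons of members gave 124 values, with medians of 3.11% and 1.72%. Of these, 22 were at least 10% in both libraries and 4 were over 50% in both. Those 4 were 2 introns of the amino acid transporter gene Slc7a4 (98.9% and 100%, and 98.8% and 100%), 1 of Camkk2, of a kinase that activates calmodulin-dependent kinases (99.5% and 98.9%), and 1 of Akap8l (90.6% and 78.7%), and in each of them protein_coding transcripts supplied more of the retained reads than members did. For the introns of Mdp1, Ppdpf, Fdx1l, Tesc and Alkbh6 no retained read lay on a protein_coding transcript. The Mdp1 intron was held by 51 and 38 reads and spliced by 48 and 60, a retention of 45.1 ± 9.01% (SD, n = 2). The Ppdpf intron was held by 76 and 62 reads and spliced by 113 and 109, the Fdx1l intron by 74 and 57 against 112 and 113, and the Tesc intron by 67 and 70 against 200 and 172. For Tesc that is 25.1% and 28.9%, and for Alkbh6 it was 29.4% and 27.4%. The Srebf2 intron was held by 33 and 11 reads and spliced by none in either library, too few for the minimum of 20 in replicate 2.

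A case where the 2 libraries parted was the 77-base intron of Mettl23, a methyltransferase gene, with a retention of 35.2% in replicate 1 and 5.56% in replicate 2. Of its 32 retained reads in replicate 1, 30 were on genomic models, a TALON class for reads that fit no spliced structure and that can stem from unspliced RNA or genomic DNA. Over all 687 introns genomic models gave 1.04% and 0.576% of the retained reads. Rpl41, of a protein of the large ribosomal subunit, gives the other end of the scale, since its 268-base intron was held by 17 and 24 reads and spliced by 2723 and 3068.

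**Figure D4:**
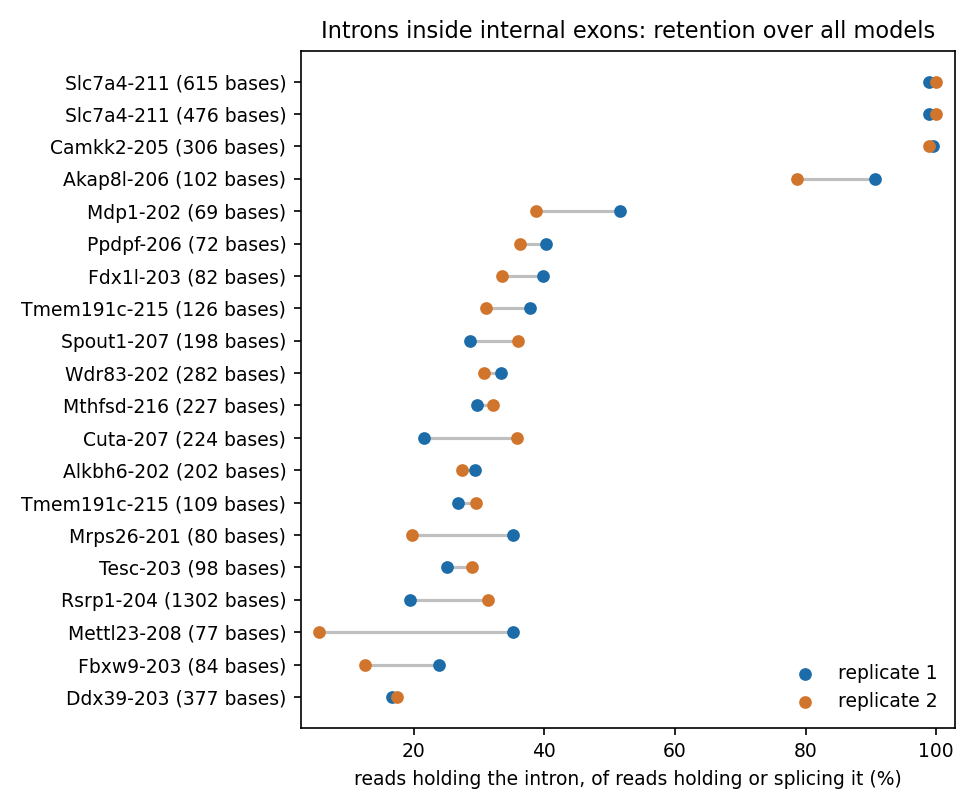
Retention (horizontal axis, percent of reads that hold the intron among those that hold or splice it, over models of every class) of the 20 highest introns that lie in an internal exon of a member (vertical axis, with the length of the intron), blue for replicate 1 and orange for replicate 2. Introns of Slc7a4 and Camkk2 lie near 100%, Akap8l at 90.6% and 78.7%, and the others at or under 51.5%.

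The held introns were shorter than the other introns of their genes at the median. The 1243 introns held by members had a median length of 244 bases, and the 192 held in an internal exon 188 bases (quartiles 98 and 379.5), beside 1426 bases for the other 36814 introns of the members' genes. For the 192 the matched value is that of the 1305 other introns of the same genes, 474 bases. Annotated introns of retained-intron transcripts without a read were also short, with medians of 283 bases over all and 282 bases in internal exons. Within the same genes, 132 of the 192 were shorter than the median of the gene's other introns (68.75%). Of the 192, 188 had GT and AG at their ends and 2 had GC and AG, and their median share of G or C was 54.0%, beside 51.8% for 2985 annotated introns in internal exons of retained-intron transcripts without a read. A stop codon in frame lay in 153 of the 181 that could be read in 1 frame between coding exons (84.5%), beside 89.5% of 2902 without a read, and 7 of the 181 had neither a stop nor a frame shift. These are descriptions of the introns, with no test, since introns of 1 gene are not independent.

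Between the 2 libraries, levels of single transcripts were compared with the library totals by a two-sided exact binomial test, over all 9409 known transcripts with at least 10 reads in total. A transcript was called at a Benjamini-Hochberg adjusted p under 0.05 and a difference of at least 2-fold. Of the 384 members tested, 26 were called, beside 11% of all known transcripts tested. Among members 14 were higher in replicate 2, beside 1.16% of all tested, and 12 lower, beside 9.88% of all tested. With a minimum of 50 reads in total, 3 members were called higher and 8 lower. The shares called over all known transcripts are not given here at this minimum, so these counts cannot be read as particular to members. The median log2 ratio of replicate 2 over replicate 1 was 0.18 over the members tested and -0.09 over all known transcripts. Members were within 1.5-fold between the libraries in 198 of 384 cases, and in 52 of the 79 with at least 50 reads.

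Synapsin II led the members that were lower in replicate 2. Syn2-205 had 283 and 14 reads, a log2 ratio of -4.29 (adjusted p = 7.97e-64, exact binomial test). Nos1ap-207, of an adaptor of neuronal nitric oxide synthase, had 93 and 19 reads (adjusted p = 2.43e-11, exact binomial test), and Kif1b-209, of a kinesin motor, 52 and 6 (adjusted p = 8.55e-09). Gfra4-208, of a receptor for GDNF family ligands, had 99 and 40, Hdgfl3-203 had 31 and 5, and Cep83-204, of a centrosomal protein, had 21 and 3. All 6 were well apart in the libraries. The protein_coding reads of Syn2 (79 and 1) and Nos1ap (37 and 10) were also lower in replicate 2, so the difference was not particular to the member. Gfra4 had no protein_coding read in either library.

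Of those higher in replicate 2, Tpt1-206, of the translationally controlled tumour protein, had 8 and 39 reads (adjusted p = 5.27e-05, exact binomial test). Hmgb1-206, of a chromatin protein, had 14 and 46, and Calm2-203, of calmodulin, had 0 and 14. Trf-209, of transferrin, had 5 and 23, Pla2g7-202 had 12 and 35, and Cinp-203 and Rps21-204 each had 0 and 10. The highest share of G or C in any 100 bases of the transcript had a median of 82.0% over the 12 members called lower in replicate 2, 63.5% over the 14 called higher and 67.0% over the 358 not called. The part of base composition in these differences was not tested. Of the 18 tested members with an intron in an internal exon none was called by the binomial test, beside 11% of all known transcripts tested. Of these 18, 1 had an unadjusted p under 0.05. With only 18 tested, the absence of a call says little.

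The share of member reads within a gene was compared by Fisher's exact test (two-sided) over 1895 pairs of a gene and a class, and called at an adjusted p under 0.05 and a difference of at least 10 percentage points. For retained-intron transcripts 13 of 1146 genes were called, beside 0.897% of all pairs. The share was higher in replicate 2 in 12, beside 0.844% of all pairs, and lower in 1, beside 0.0528%. The retained-intron pairs are part of all pairs.

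In the gene of protein kinase C beta, Prkcb, member reads were 100 and 114 while protein_coding reads were 424 and 34, so that the share was 19.1% in replicate 1 and 77.0% in replicate 2 (adjusted p = 1.94e-35, Fisher's exact test). In Mtch1, of a protein of the mitochondrial outer membrane, member reads were 31 and 41 and protein_coding reads 1410 and 84, shares of 2.15% and 32.8% (adjusted p = 3.72e-26, Fisher's exact test). Cbx6, of a Polycomb protein, had member reads of 34 and 32 and protein_coding reads of 36 and 1. Ap1ar had 13 and 18 beside 79 and 12, and Hmgb1 14 and 46 beside 295 and 245. Gnao1 had 105 and 164 beside 74 and 41, shares of 58.7% and 80.0%. In Prkcb, Mtch1, Cbx6 and Ap1ar the member reads differed little and the protein_coding reads were lower in replicate 2. Over all models of the gene, members of Cbx6 held 34.3% and 37.6% of the reads, so little of its difference remained. The values were 13.1% and 23.4% for Prkcb, 1.96% and 20.5% for Mtch1, and 10.4% and 43.9% for Ap1ar. For Hmgb1 they were 3.51% and 11.1%, and for Gnao1 46.1% and 65.1%.

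Cox4i1 was the gene with a lower share in replicate 2. Its member reads were 1026 and 574 and its protein_coding reads 2928 and 3058, which gave 25.9% in replicate 1 (exact Clopper-Pearson limits 24.6 and 27.3%) and 15.8% in replicate 2 (limits 14.6 and 17.0%; adjusted p = 8.69e-25, Fisher's exact test). Here the protein_coding reads were close in the 2 libraries and the member reads were not. Cox4i1-204 alone had 1014 and 546 of the member reads, while Cox4i1-203 had 12 and 27. The other genes called were Gnb2, Metap2, Dbp, Ptms, Pabpc1 and Habp4. Over all models of the gene, members of Ptms held 6.17% and 6.45% of the reads, which were close. The values were 7.56% and 13.9% for Gnb2, 43.5% and 57.4% for Metap2, and 1.62% and 15.6% for Dbp. For Pabpc1 they were 58.3% and 79.5%, and for Habp4 0.978% and 6.35%. With members that hold an intron in an internal exon alone, none of 88 genes was called by Fisher's exact test and 2 had an unadjusted p under 0.05. Beside 0.897% of all pairs called in the main test, 0 of 88 says little. Mrps26 with 33.0% and 18.6% had the largest difference among the genes named above (adjusted p = 0.146, Fisher's exact test).

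**Figure D5:**
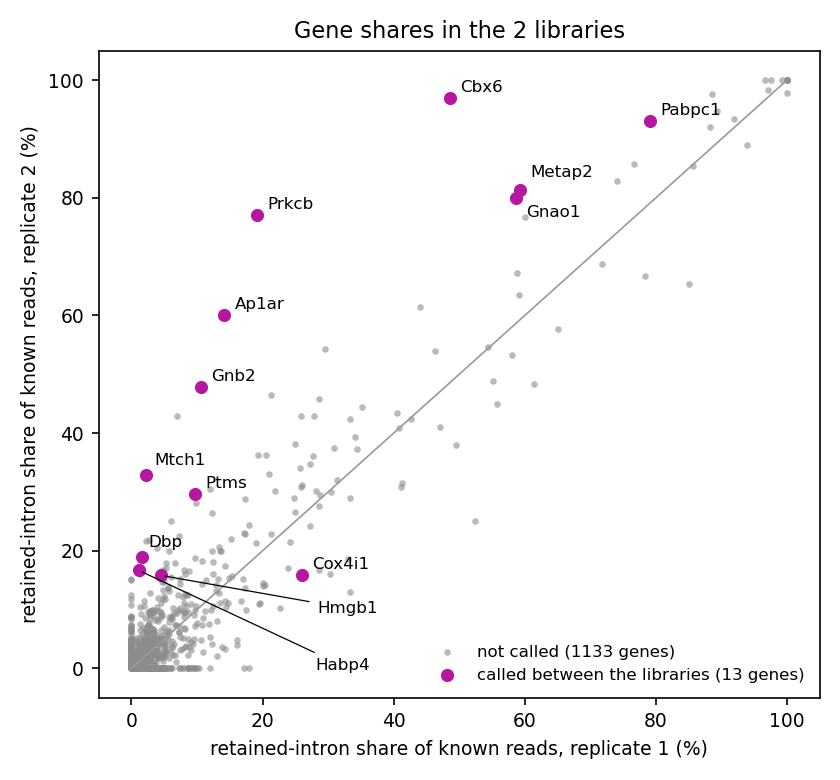
Share of member reads among member and protein_coding reads of each gene in replicate 1 (horizontal axis, percent) and replicate 2 (vertical axis, percent) for 1146 genes, with the line of equal shares. Purple points are the 13 genes called between the libraries, of which 12 lie above the line and Cox4i1 below it.

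By function, the members were read against 22 gene lists. Over all protein-coding genes the pooled share of member reads was 1.51 ± 0.108% (SD, n = 2), from 11600 and 11447 member reads. The lists of splicing genes had few member reads, and their mean pooled shares lay above this value. That was not particular to splicing genes. Mean pooled shares were 6.77% for G protein subunits, 5.91% for nuclear kinases and glycosylation enzymes, and 5.44% for synaptic vesicles and fusion. In replicate 1, however, neuronal splicing regulators were at 1.01% and the core spliceosome at 1.44%, against 1.43% over all protein-coding genes. Members of 8 of 13 genes of SR proteins, which bind exonic enhancers, had 16 and 29 reads, a pooled share of 2.05% and 4.75%, with Srsf2-203 at 5 and 14 and Tra2b-203 at 3 and 7. Members of 4 of 8 genes of SR protein kinases had 36 and 26 reads, a pooled share of 22.8% and 28.0%, and Prpf4b-206 alone had 29 and 22 of them. Clk1-212, which holds an intron of the kinase gene Clk1 in an internal exon, had 4 and 0 reads.

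Members of 10 of 27 hnRNP genes had 33 and 31 reads (2.73 ± 0.647%, SD, n = 2), of which Hnrnpr-211 had 14 and 18, and members of 23 of 65 genes of the core spliceosome had 64 and 72 (1.67 ± 0.332%), of which Prpf31-205 had 26 in each library. Members of 6 of 25 genes of neuronal splicing regulators had 7 and 11 reads (1.62 ± 0.865%). In the list of other RNA-binding proteins, members of 26 of 57 genes had 138 and 231 reads (5.31 ± 1.70%), most of them on Pabpc1-204, and the other leading gene was Rbm39 with 13 and 20 reads and shares of 35.1% and 44.4%. No gene of SR proteins, hnRNP proteins or neuronal splicing regulators was over 50% in both libraries at 20 reads in each. Only 4, 4 and 2 genes of these lists met that minimum, and over all genes 30 of 1146 were over 50%, so their absence says little.

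Lists of metabolic and translation genes lay on both sides of the value over all protein-coding genes. Members of 41 of 84 genes of cytosolic ribosomal proteins had 753 and 855 reads, a pooled share of 1.18 ± 0.0554% (SD, n = 2), with Rpl5 and Rps24 over 50% in both libraries and Rpl14 at 11.2% and 9.80%. Members of 26 of 94 genes of oxidative phosphorylation had 1235 and 794 reads (1.91 ± 0.601%), of which Cox4i1 held 1026 and 574, and Cox6a1-202 had 55 and 32. Glycolysis gave 109 and 120 reads with a pooled share of 0.720 ± 0.0657%, led by Eno1-207 with 44 and 47, and the proteasome 77 and 67 reads at 0.943 ± 0.0863%. Translation factors gave 137 and 126 reads (1.53 ± 0.162%), of which Eif2s2 held 114 and 88, aminoacyl-tRNA synthetases 23 and 19 (1.67 ± 0.215%), and chaperones 98 and 131 (1.13 ± 0.267%), led by Hsp90aa1-206 with 49 and 79.

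Neuronal and glial lists were uneven. Genes of synaptic vesicles and fusion had 587 and 232 member reads, and Syt1 and Syn2 accounted for 280 and 186 and for 283 and 14 of these. G protein subunits had 143 and 185, of which Gnao1 held 105 and 164, and 2 of their genes, Gnao1 and Gnb2, were among those called higher in replicate 2. Of the 48 genes of glutamate and GABA receptors 18 have an annotated retained-intron transcript, and members of 4 had 7 and 12 reads. Of the 91 genes of voltage-gated ion channels 34 have one, and members of 4 had 5 and 1 reads. Over all 22028 protein-coding genes 9119 have one and 2613 had a member read. In calcium and calmodulin signalling members had 46 and 70 reads at a pooled share of 0.344 ± 0.0949%, in the cytoskeleton list 27 and 46 at 0.149 ± 0.0727%, in the astrocyte list 14 and 23 at 0.0698 ± 0.0350%, and in the myelin list 63 and 93 at 0.943 ± 0.318%. Nuclear kinases and glycosylation enzymes had 20 and 14 member reads, 13 and 4 of them on Cdk13-206. The pooled values of all lists are descriptions with no test.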

How the data were processed

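The data are long-read RNA libraries of left cerebral cortex, 2 in 1 group, made from total RNA. The deposited tables hold counts: whole reads that the authors assigned to each transcript model, with no normalization, and per the file headers also other values, namely exon numbers and model lengths. Per the file headers, the deposited annotations give the start and end positions (other values, in bases of mm10) of GENCODE M21 features and of models added by TALON. The aligner and the version of TALON: not given in the sources used here. Read ends and alignments were not analysed here.

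Members were matched by transcript ID and their exons compared with those of protein_coding transcripts of the gene. Levels were reads per 1000000 reads of the library, and log2 ratios had 0.5 counts added. Binomial, Fisher and Clopper-Pearson (95%) calculations used scipy 1.17.1 in Python 3.11.15; edgeR 4.0.16 and DESeq2 1.42.0 in R 4.3.3 gave alternative library sizes only. The tests were checked on simulated counts. With 2 libraries of 1 group, no test of a condition exists. Transcripts were named by rule: the 15 of highest mean level, the 12 genes of highest share, up to 6 called in each direction with the lowest adjusted p, up to 4 genes per list and the 6 introns of highest retention, plus the introns in internal exons that are shown as sequence; others named, such as Mettl23, Rpl41, Camkk2 and Clk1, were chosen after their values were seen. Members and lists were chosen with earlier results of these data known.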

Additional observations from a re-analysis of the deposited data

How the results depend on the processing

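No paired analysis was possible because the 2 libraries form a single group. The mean share of library reads on members was 0.889%. It became 1.36% over reads on known transcripts and 0.75% with members of more than 1 exon. With members that hold a whole intron in an internal exon it was 0.0429%. With members whose intron chain is no part of a protein_coding chain it was 0.201%. The last 2 settings were chosen after seeing the data, here and below. The last one keeps single-exon members, which have no junction and held 14.7% and 16.5% of member reads. Members with an intron left in a protein_coding chain held 4.83% and 4.27%, and those with a junction or combination of their own 2.15% and 2.15%. Leaving out either library gave 0.884 to 0.894%. Members read in both libraries numbered 1337, 716 with at least 2 reads in each, 61 with an intron in an internal exon and 283 outside protein_coding chains.

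The median gene share of 2.00% became 1.62% over all models, 2.52% at 10 reads, 1.48% at 50 reads, 1.13% with internal exons and 1.56% outside protein_coding chains, and lay from 1.82 to 2.27% with 1 library left out. The 30 genes over 50% became 13 over all models, 52 at 10 reads, 16 at 50 reads, 0 with internal exons and 7 outside protein_coding chains, and 34 to 36 with 1 library left out. Of the 30 genes, 7 were led by a single-exon member. The 26 transcripts called became 15 with no minimum of reads, 11 at 50 reads (3 higher and 8 lower in replicate 2) and 0 of 18 with internal exons (1 at an unadjusted p under 0.05). In the main setting 11% of all known transcripts tested were called, so 0 of 18 says little. The share called over all known transcripts is not given here for the other minimums of reads. The 13 shares called became 8 at 50 reads, 7 at a difference of 20 points and 0 of 88 with internal exons (2 at an unadjusted p under 0.05). In the main setting 0.897% of all pairs were called, so 0 of 88 says little. Calls stayed within 1.5 times under edgeR or DESeq2 library sizes (27 and 24 transcripts).

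The median retention of 3.32% became 2.38% with known transcripts only, 4.03% at 10 informative reads, 2.20% at 50 and 0% with retained reads only from internal exons, and was 2.94 to 3.45% with 1 library left out. The internal-exon settings keep fewer transcripts by construction; for the others the cause was not tested. At a median of 1 read, single members cannot be ranked.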
